A study of Mus musculus with 2 samples.

Results

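Of 10 RNA genes chosen by symbol, namely the nuclear long noncoding RNAs Neat1 and Malat1 and the host genes of small nucleolar RNAs (snoRNAs) Gas5, Snhg1, Snhg3, Snhg5, Snhg6, Snhg7, Snhg8 and Snhg12, 6 matched a row of the deposited gene table of 36808 genes. These are Gas5, Snhg12, Snhg3, Snhg5, Snhg1 and Snhg7, all of them snoRNA hosts. Neat1, Malat1, Snhg6 and Snhg8 matched no row by symbol, RefSeq synonym or Ensembl identifier and are not analysed here, so the data described are those of host genes only and no nuclear long noncoding RNA of the set has a value. The RNA came from primary hepatocytes of C57Bl6 mice, liver parenchymal cells kept in culture. Both cultures were kept in William E medium with serum (FBS), insulin and the glucocorticoid dexamethasone. GW3965, a compound that activates the liver X receptors (LXR), was added to one at 1 µM, and the control culture had DMSO. The labels state neither how long the treatment lasted nor the number, sex or age of the animals. Each group is 1 library, so no value has a replicate spread. The table calls the library that is not DMSO "GL", read here as the GW3965 library because it is the only other sample; every GW3965 value rests on that reading.

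SnoRNAs are short RNAs that guide the modification or cleavage of ribosomal RNA in the nucleolus. Most mammalian snoRNAs are cut out of introns of a host transcript. C/D box snoRNAs guide ribose methylation and H/ACA box snoRNAs guide pseudouridylation. The hosts described here code for no known conserved protein, and their spliced RNA reaches the cytoplasm, where nonsense-mediated decay removes much of it. Many hosts, like the genes of ribosomal proteins, start transcription at a run of pyrimidines (the terminal oligopyrimidine, or TOP, motif), which ties their translation to growth signals.

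The sequences around the start sites of the 6 genes are shown because this run is a feature that the choice of genes did not use. Each line gives 60 bases, 30 before and 30 from the annotated start on, from the RefSeq promoter table (build GRCm38.p6), where all 6 genes matched and Gas5 has 2 entries. Capitals mark the longest run of C and T that touches the start or the 5 bases on either side of it.
Gas5, first entry (chr1:161034571-161034630, plus strand): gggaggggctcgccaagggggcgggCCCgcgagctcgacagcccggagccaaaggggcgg
Gas5, second entry (chr1:161035136-161035195, plus strand): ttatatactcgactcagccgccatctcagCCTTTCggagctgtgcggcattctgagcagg
Snhg12 (chr4:132308648-132308707, plus strand): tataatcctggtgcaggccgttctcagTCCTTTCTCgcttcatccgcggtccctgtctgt
Snhg3 (chr4:132353657-132353716, minus strand): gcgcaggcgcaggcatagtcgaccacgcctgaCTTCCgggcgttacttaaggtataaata
Snhg5 (chr9:88522868-88522927, minus strand): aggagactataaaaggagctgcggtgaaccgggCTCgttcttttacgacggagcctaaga
Snhg1 (chr19:8723457-8723516, plus strand): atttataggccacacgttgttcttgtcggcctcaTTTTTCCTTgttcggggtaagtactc
Snhg7 (chr2:26640215-26640274, minus strand): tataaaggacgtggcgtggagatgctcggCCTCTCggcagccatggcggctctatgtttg

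A run of at least 5 pyrimidines was present in 5 of these 7 promoters, against 32.9% of all 32851 promoters in the table and 26 of 46 promoters of ribosomal proteins that are not on the list of snoRNA hosts. Snhg12 and Snhg1 had runs of 9 bases, a length reached by 6.89% of all promoters; that of Snhg1 begins a few bases past the start. The second Gas5 entry and Snhg7 had runs of 6 bases that include the start, reached by 21%. Snhg5 and the first Gas5 entry had only 3, the median of all promoters. Among the promoters of other noncoding snoRNA hosts, 4 of 12 had a run of at least 5, near the share of all promoters. Among those of ribosomal proteins that host snoRNAs, 7 of 15 had one. The letters TATAAA, searched on the gene's strand from 45 to 16 bases before the start, occurred in the promoters of Snhg5 and Snhg7 and in 2.14% of all promoters. The nuclear receptor half-site AGGTCA, searched on both strands of the 300 bases from 250 before to 50 after the start, occurred in 0 of the 7, against 16.3% of all promoters. The paired form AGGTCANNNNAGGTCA, which contains that half-site 2 times and resembles the element LXR is known to bind, occurred in 0 of the 7 and in 0.0152% of all promoters. These are matches of letters in these windows and say nothing about binding.

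Levels are given as FPKM, fragments scaled to transcript length and to library size, as the authors deposited them. The steps between low FPKM values place the depth at about 63.2 M fragments for DMSO and 78.5 M for GW3965. Ratios are on the log2(FPKM + 1) scale, GW3965 minus DMSO, which understates differences of low genes. Counts cover the 11796 genes with at least 1 FPKM in one library or both. LXR targets check the treatment. Abca1, the sterol exporter, stood at 14.6 FPKM with DMSO and at 81.1 with GW3965. Scd1, the stearoyl-CoA desaturase, had 206 and 980, and Srebf1, a lipogenic transcription factor, 37.6 and 100. All 7 LXR targets listed were at least 1.5-fold higher, but the authors' deposited table called only 4 of them. Srebf1 was not called (p = 0.00873 and q = 0.708564 in the authors' deposited table), so that test can miss differences of this size.

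All 6 host genes reached the minimum, and all 6 were listed at a lower FPKM in the GW3965 library, by small amounts. Gas5, whose name comes from growth-arrested cells and whose RNA is known to bind the glucocorticoid receptor, had 307 FPKM in DMSO against 274 in GW3965, or -0.16 as a log2 ratio. Snhg12 had 40.1 and 34.3 FPKM, a ratio of -0.22. Snhg3, host of the H/ACA snoRNAs Snora73a and Snora73b, had 18.9 and 15.2 FPKM (-0.29). These 3 genes were thus 10.7%, 14.6% and 19.3% lower in FPKM, and Gas5 alone made up 77.4% of the summed FPKM of the 6 genes in DMSO and 77.9% in GW3965.

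Snhg5, host of C/D snoRNAs of the Snord50 family, had 15.4 FPKM in DMSO against 15.2 in GW3965, or -0.01 as a log2 ratio. Snhg1, host of a series of C/D snoRNAs, had 9.03 and 8.29 FPKM (-0.11). Snhg7 had 6.13 and 4.79 FPKM, a ratio of -0.30. Of the 6, Snhg7 was 21.8% lower and had the lowest ratio, while Snhg5 was 0.914% lower and nearly level between the libraries. The order of levels was the same in both libraries except that Snhg3 and Snhg5, apart in DMSO, exchanged places at nearly equal levels in GW3965.

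**Figure D1:**
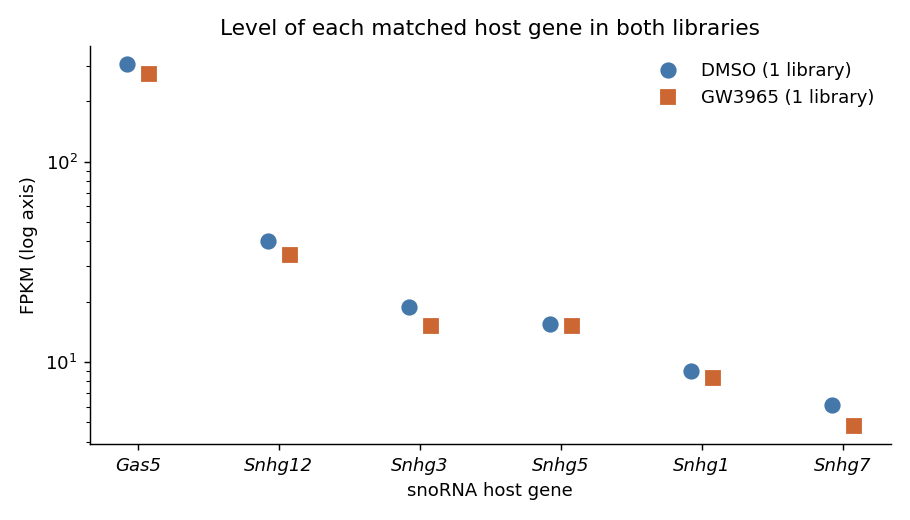
FPKM on a log axis for the 6 matched host genes, ordered by level in DMSO, with 1 point per library and no error bar because each group has 1 library. Gas5 stands at 307 in DMSO and 274 in GW3965, far above Snhg7 at 6.13 and 4.79, and every GW3965 point lies at or below its DMSO point.

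Read against all genes, the 6 ratios had 1 direction and sizes inside the range of most genes. A ratio below 0 was found in 6 of 6 host genes, in 47.1% of all genes at the minimum and in 59.5% of the 264 long noncoding genes among them. The median ratio was -0.19 for the 6 host genes, 0.01 for all genes and -0.04 for the long noncoding genes. At least 1.5-fold lower were 0 of the 6 host genes, against 1.33% of all genes, and at least 1.5-fold higher 0, against 1.02%. At a lower threshold of 0.32 on the log2 scale the count of host genes was 0 as well in both directions, against 3.93% of all genes higher and 5.32% lower. That 0 depends on the pseudocount of 1. Without a pseudocount the log2 ratio of Snhg7 was -0.36, past the lower threshold. Of all genes, 6.22% had a lower ratio than Snhg7, 6.43% a lower one than Snhg3, 10.1% than Snhg12, 15.3% than Gas5, 22.3% than Snhg1 and 43.8% than Snhg5.

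The authors' deposited table called none of the host genes, against 0.285% of the 15090 genes tested there, and 0 of the 6 had an unadjusted p under 0.05, against 3.34%. In the authors' deposited table the p-values ran from 0.363 for Snhg7 to 0.956 for Snhg5, and q was 0.999957 for each of the 6. The size of the score, the test statistic of the authors' deposited table, was under 1 for 6 of 6 host genes and for 83.8% of the genes tested, so each log2 ratio of FPKM was smaller than its own standard error. That standard error, derived from the score of the authors' deposited table, was 0.257 for Gas5, 0.299 for Snhg12, 0.241 for Snhg5, 0.257 for Snhg1, 0.391 for Snhg7 and 0.664 for Snhg3. The differences were therefore not detectable as differences of single genes in that test, which compares 2 libraries and not the conditions. Counting error alone would be smaller: for Gas5, about 3700 fragments in DMSO and 4110 in GW3965 at its shortest annotated transcript of 346 bases give 0.0327. For Snhg1 the same estimate gives 89.5 and 102 fragments and 0.209.

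**Figure D2:**
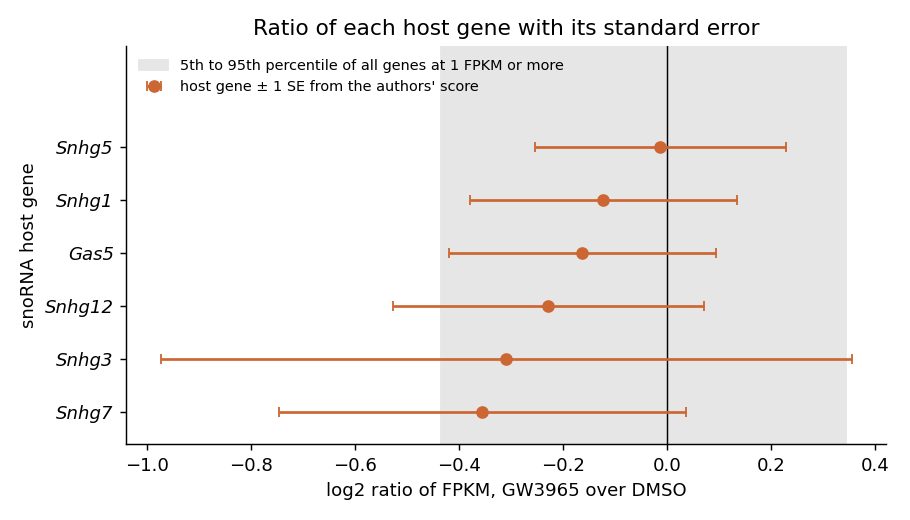
Log2 ratio of FPKM between the GW3965 and DMSO libraries, without a pseudocount, for the 6 host genes; bars are 1 standard error derived from the authors' score and the grey band spans the 5th to 95th percentile of all genes at the minimum FPKM. All points lie left of 0 inside the band, from -0.36 for Snhg7 to -0.01 for Snhg5, and all 6 bars cross 0, the bar of Snhg3 being the widest.

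The value of Snhg3 is uncertain for another reason. Of the 25-base words in its annotated transcripts, 74.3% also occur in transcripts of other genes, 63.7% in the long noncoding RNA Gm17300 of the same locus and 8.96% in Rcc1, which encodes the nucleotide exchange factor of Ran. Gm17300 was level at 1.70 FPKM with DMSO and 1.71 with GW3965, and Rcc1 had 22.5 and 23.6 FPKM (0.07). For Gas5, Snhg1, Snhg5 and Snhg12 the shared portion was 11.3%, 14.9%, 17.1% and 15%. The largest partner of Gas5, Snhg1 and Snhg12 was an annotated snoRNA with at most 4.54%, while Snhg5 shared 14% with 9330159M07Rik. Snhg7 has no entry in the transcript set used, so its overlap was not measured. Without Snhg3, the median ratio of the other 5 host genes was -0.16.

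The loci of the 6 hosts, in the coordinates of the table (mm9), were chromosome 1, 162938931 to 162968670 for Gas5, chromosome 4, 131864593 to 131866939 for Snhg12 and 131887834 to 131909601 for Snhg3, chromosome 9, 88415894 to 88417721 for Snhg5, chromosome 19, 8797986 to 8800932 for Snhg1 and chromosome 2, 26492697 to 26495764 for Snhg7. A locus of the table can span several genes, and that of Gas5 also holds Zbtb37, a zinc finger gene at 1.14 and 1.05 FPKM (-0.06). Strand handling is not given in the sources used here, so reads of overlapping genes on opposite strands may not be separated. The 12 nearest genes outside these loci had a median ratio of 0.07, 10 of them above 0 and 2 below, and 0 passed 1.5-fold.

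In 5 of the 6 cases, all but Snhg5, the host had a lower ratio than every nearest gene. At most 22.3% of all genes had a lower ratio than any of these 5 hosts, so most genes stand above them wherever they lie. The genes nearest to Snhg7 are 32759 and 248383 bases away, and Trnau1ap counts for both Snhg12 and Snhg3. Slc3a2, the heavy chain of an amino acid transporter, lies 126 bases from the Snhg1 locus and had 79.7 FPKM in DMSO and 93.1 in GW3965 (0.22), against -0.11 for Snhg1. Serpinc1, which encodes antithrombin, lies 5789 bases from the Gas5 locus and had 73.2 and 85.6 FPKM (0.22), against -0.16 for Gas5. Trnau1ap, a selenocysteine tRNA factor that lies between Snhg12 and Snhg3, had 31.4 and 29.2 FPKM (-0.10). Zfp949 next to Snhg5 had 3.0 and 2.52 FPKM (-0.19), lower than the -0.01 of Snhg5. These differences between neighbours have no test.

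**Figure D3:**
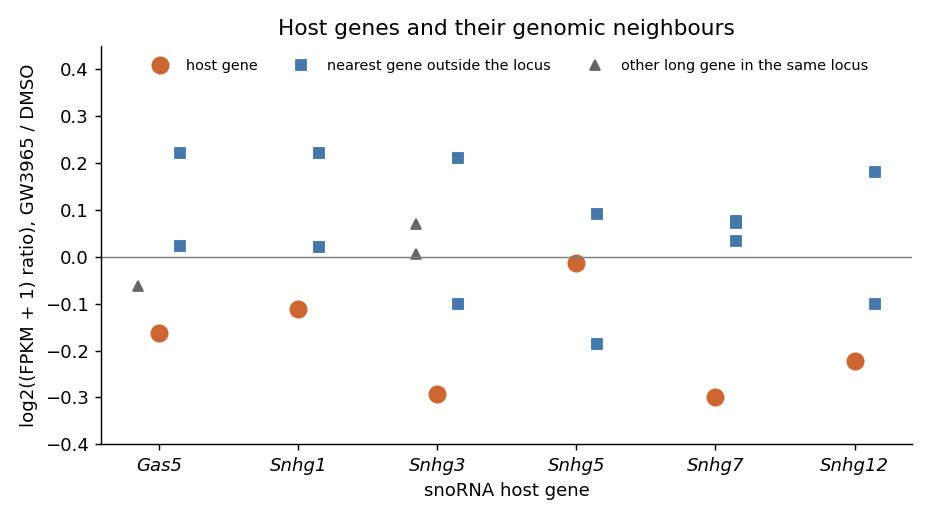
Log2 ratio with a pseudocount of 1 for each host gene (circle), the nearest gene of at least 1 FPKM on each side of its locus (square) and other long genes of the same locus (triangle). For Gas5, Snhg1, Snhg3, Snhg7 and Snhg12 the circle lies below every square, and for Snhg5 it lies between them.

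The snoRNAs inside these loci were mostly listed at 0. The 6 loci hold 27 snoRNA rows: 21 of them were listed at 0 in both libraries, and 5 passed the minimum. The 21 rows bear the table's marks LOWDATA or NOTEST, and a listed 0 does not show that a snoRNA is absent from the cells. C/D box rows were at 0 in both libraries in 19 of 20 cases, among them all 9 of the Gas5 locus and 7 of 8 of the Snhg1 locus. H/ACA box rows were at 0 in both in 2 of 7. In the whole table, 97.7% of 348 C/D rows and 94.6% of 1031 H/ACA rows were at 0 in both libraries, and the annotated RNAs have median lengths of 75 and 130 bases. For 16 of the 21 rows at 0, the table's own fold column repeats the fold of the host gene, so that column holds no information on these snoRNAs.

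Snora73a and Snora73b were the nested snoRNAs above 0 in both libraries, and their sequences are shown because reads of such similar RNAs can be shared. They are H/ACA snoRNAs that act in the processing of the small ribosomal subunit's RNA. In the GENCODE M21 transcripts (GRCm38) they are equally long and differ at 7 positions (96.6% identity), marked by capitals.
Snora73a: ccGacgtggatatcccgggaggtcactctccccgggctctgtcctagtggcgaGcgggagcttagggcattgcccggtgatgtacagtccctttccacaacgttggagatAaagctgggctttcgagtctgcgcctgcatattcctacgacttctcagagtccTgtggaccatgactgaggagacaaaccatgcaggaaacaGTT
Snora73b: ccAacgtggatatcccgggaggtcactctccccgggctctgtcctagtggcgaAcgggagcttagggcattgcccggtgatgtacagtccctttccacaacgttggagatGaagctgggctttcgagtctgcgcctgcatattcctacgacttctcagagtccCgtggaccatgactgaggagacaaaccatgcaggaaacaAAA

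Counted from the first base, the substitutions from Snora73b to Snora73a are A3G, A54G, G111A, C164T, A203G, A204T and A205T. Of the 25-base words, 55.2% are common to both, and 91.2% of those of Snora73a and 100% of those of Snora73b occur in Gm17300. Snora73a had 8.25 FPKM in DMSO and 6.27 in GW3965 (-0.35), with p = 0.878 in the authors' deposited table. Snora73b had 22.8 and 13.7 FPKM (-0.70), with p = 0.601 in the authors' deposited table. Both were thus listed lower in GW3965, like Snhg3, but they share sequence with it: 74.6% of the words of Snora73a and 40.9% of those of Snora73b occur in annotated Snhg3 transcripts. They are no independent support for the direction of Snhg3.

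The size of 1 fragment on short RNAs was not measured. If the lowest FPKM at a given length stands for it, the other nested snoRNAs at the minimum FPKM rest on few fragments. Their sequences are given because their length sets that size; capitals mark the ACA box of the H/ACA RNAs, found 3 bases before the end, and the last CTGA, the letters of box D, in Snord22.
Snora61: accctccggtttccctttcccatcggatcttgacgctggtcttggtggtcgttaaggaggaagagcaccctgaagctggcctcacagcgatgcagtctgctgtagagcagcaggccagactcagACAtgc
Snora16a: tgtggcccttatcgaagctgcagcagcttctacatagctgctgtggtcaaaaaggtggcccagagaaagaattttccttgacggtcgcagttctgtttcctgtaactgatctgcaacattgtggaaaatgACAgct
Snord22: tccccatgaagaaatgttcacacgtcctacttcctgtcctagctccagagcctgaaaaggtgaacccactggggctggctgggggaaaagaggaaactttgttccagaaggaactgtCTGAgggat

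Snora61 of the Snhg12 locus, with 130 bases, had 3.12 FPKM in DMSO and was listed at 0 in GW3965. The lowest value above 0 of another gene with 130 bases was 3.11 in DMSO, so the Snora61 value is the smallest step seen at that length. Snora16a of the same host, with 136 bases, was listed at 0 in DMSO and had 5.43 FPKM in GW3965, 3 times the lowest value of another such gene (1.81). Snord22 of the Snhg1 locus, with 126 bases, had 21.3 FPKM in DMSO and was listed at 0 in GW3965, and its value is 5.11 times the lowest value at that length (4.17). Snora61 and Snora16a of the same host were thus listed in opposite directions. If the lowest value stands for 1 fragment, these levels are 1, 3 and about 5 fragments, and no fold is given for them. Snora43 of the Snhg7 locus, under the minimum, had 0.897 FPKM in DMSO, 0.232 of the lowest value at its length, and was listed at 0 in GW3965. At that length the lowest value of another gene was thus not the smallest step.

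Other noncoding hosts were also mostly listed lower, as were most long noncoding genes at the minimum. Of the 10 other noncoding snoRNA hosts at the minimum, 7 were below 0 and 3 above, with a median of -0.16. Of the 8 matched genes of this list with a GENCODE entry, 7 hold a snoRNA there on their strand; Snhg20 (-0.18) does not and was kept in the counts. Zfas1, the highest of them, had 74.6 FPKM in DMSO and 66.6 in GW3965 (-0.16). Epb41l4aos had 36.2 and 29.6 FPKM (-0.28), Snhg4 had 6.76 and 4.98 (-0.38) and Snhg11 had 1.77 and 1.35 (-0.24). Snhg9 was listed at 0 in DMSO and at 1.04 FPKM in GW3965. Without Snhg9 the median was again -0.16 with 7 of 9 below 0. Together with the 6 genes above, 13 of 16 noncoding hosts were below 0, and the authors' deposited table called 0 of them. Of the 264 long noncoding genes at the minimum, 59.5% were below 0, and 0.285% of all genes tested were called. The 6 were chosen with earlier results known, so the joint count adds only the 7 of 10.

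Protein-coding hosts had mostly positive ratios, a difference from the noncoding hosts that has no test. Of 24 such genes outside the ribosome, 16 were above 0 and 8 below, with a median of 0.08, and 22 of the 24 hold a snoRNA on their strand in GENCODE. Hspa9, a mitochondrial chaperone, had 255 FPKM in DMSO and 318 in GW3965 (0.32). Ncl, which encodes nucleolin, had 102 and 116 (0.18), and Eif4a1, a translation initiation helicase, 540 and 619 (0.20). Tpt1, the most abundant, had 3230 and 3440 (0.09), and Eef2, a translation elongation factor, 1140 and 1270 (0.16). None of the 24 passed 1.5-fold. In the authors' deposited table none was called and 0 had an unadjusted p under 0.05, against 0.285% and 3.34% of the genes tested there. Of all genes at the minimum, 47.1% were below 0.

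Ribosomal protein genes, known for the TOP motif, had medians near 0 but more genes below 0 than above. Of all genes at the minimum, 47.1% were below 0. Of 23 that host snoRNAs, 14 were below 0 and 9 above, with a median of -0.02. Rpl39 stood at 647 FPKM with DMSO and 525 with GW3965 (-0.30). Rpl5 stood at 628 and 707 FPKM (0.17). Of the 50 other ribosomal protein genes, of which 6 hold a snoRNA in GENCODE as well, 34 were below 0 and 16 above, with a median of -0.05, from Rps19 at -0.27 to Rplp0 at 0.17. Ribosomal protein genes have many processed copies in the mouse genome, with which reads can be shared.

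**Figure D4:**
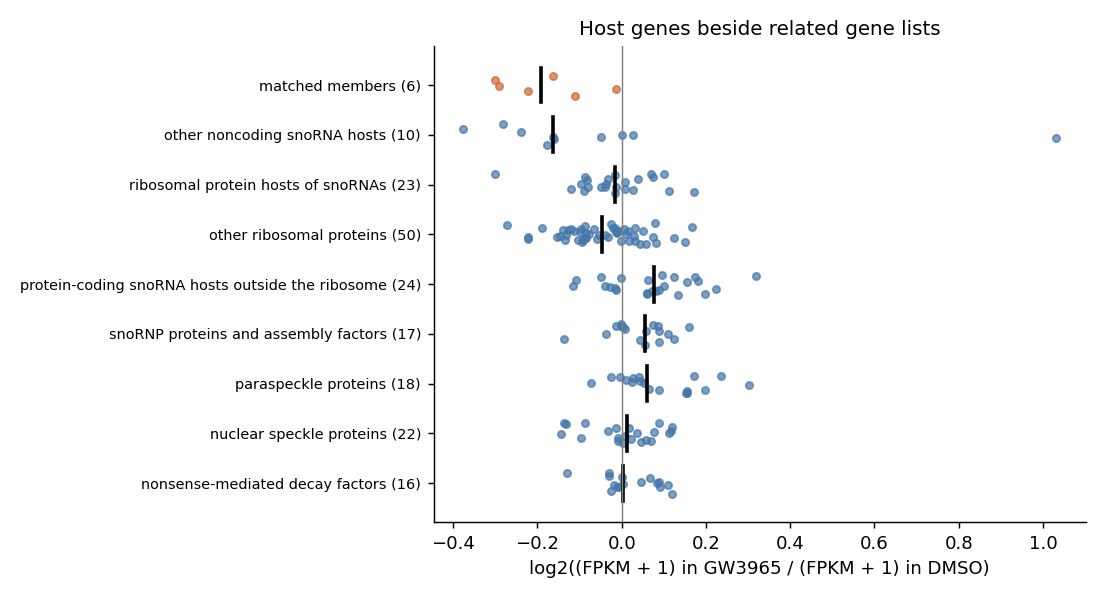
Log2 ratio with a pseudocount of 1 for each gene at the minimum FPKM in the 6 matched host genes and 8 related lists; black bars are medians and numbers in brackets count genes. The matched members and the other noncoding hosts have medians of -0.19 and -0.16, and the remaining lists lie between -0.05 and 0.08; the far right point is Snhg9, listed at 0 in DMSO.

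The machinery around these RNAs showed small ratios. Of 17 genes of snoRNA-protein particles and their assembly, 12 were above 0 and 5 below, with a median of 0.05. Nop56, a core C/D protein and itself a snoRNA host, had 105 FPKM in DMSO and 104 in GW3965, Fbl, the methyltransferase fibrillarin, 77.6 and 82.4, and Dkc1, the pseudouridine synthase dyskerin, 38.0 and 41.5. Of 16 nonsense-mediated decay factors, 9 were above 0 and 7 below, with a median of 0.00 that turned to -0.01 on centring. Upf3b had 10.8 and 9.75 FPKM (-0.13).

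Although Neat1 and Malat1 have no value here, the genes that encode proteins of their nuclear bodies do. These are RNA levels, and no protein was measured. Paraspeckles form on Neat1, and of 18 genes of paraspeckle proteins 15 were above 0 and 3 below, with a median of 0.06. Of all genes at the minimum, 47.1% were below 0. Sfpq, which is needed for paraspeckles, stood at 143 FPKM with DMSO and 177 with GW3965 (0.30). Hnrnpa1 stood at 226 and 267 FPKM (0.24). Nuclear speckles, where Malat1 resides, were represented by the genes of 22 proteins, 13 above 0 and 9 below, with a median of 0.01. The splicing factor Srsf5 had 171 and 156 FPKM (-0.14). None of the genes in these 4 lists passed 1.5-fold, and none was called in the authors' deposited table, against 0.285% of the genes tested there.

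Since Gas5 RNA can act as a decoy for the glucocorticoid receptor and the medium held dexamethasone, targets of that receptor were listed too. Of 16 at the minimum, 6 were above 0 and 10 below, with a median of -0.03. The metallothionein genes Mt1 and Mt2 had 455 and 418 FPKM in DMSO and 603 and 519 in GW3965 (0.41 and 0.31), while Zbtb16 had 1.91 and 1.35 (-0.31). Fkbp5, a classical target, had 13.4 and 13.7 FPKM. The list had no common direction. Of the 16, Mt1 alone had an unadjusted p under 0.05 in the authors' deposited table (p = 0.03), against 3.34% of all genes tested there, and none was called. Under the minimum FPKM, Tat, a tyrosine-degrading enzyme, had 0.962 and 0.447 FPKM, with p = 0.00506 in the authors' deposited table. G6pc, of glucose release, had 0.224 and 0.0789 FPKM, with p = 0.00821 in the authors' deposited table.

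Markers of liver cell types were read in the same comparison. Of 8 hepatocyte markers with a usable value, 5 were below 0 and 3 above, with a median of -0.21, close to that of the host genes. The 5 below 0 were Ahsg at -0.63 (1280 FPKM in DMSO against 831 in GW3965), Serpina1a at -0.46, Hnf4a at -0.39, Fgb at -0.30 and Ttr at -0.12. In the authors' deposited table, Serpina1a had p = 0.0121 and Ahsg p = 0.0232, without a call. The 3 above 0 were Cps1 of the urea cycle at 0.31, with only 1.5 and 2.10 FPKM, Apoa1 at 0.14 and Apob at 0.03. Alb and Trf bore the table's mark for too many fragments and were not used. Of 9 macrophage markers at the minimum (12 listed), 6 were below 0 and 3 above, with a median of -0.13. C1qa (-0.35), C1qc (-0.32) and Lyz2 (-0.31) were lowest, while the sum went from 135 to 146 FPKM through Cd68, which had 74.9 and 93.9. Of 8 endothelial markers at the minimum (9 listed), 7 were above 0, with a median of 0.19 and sums of 194 and 222 FPKM. Of 9 stellate cell and fibroblast markers (10 listed), 7 were above 0, with a median of 0.15 and sums of 91.4 and 97.6 FPKM. The 3 cholangiocyte markers at the minimum (6 listed) had a median of 0.07, with Krt19 at 0.27, Sox9 at 0.07 and Spp1 at -0.29, and Spp1 made up nearly all of their sums of 4150 and 3390 FPKM. Of 8 lymphoid and granulocyte markers Ptprc alone reached the minimum, and 0 of 5 erythroid markers did. The part of cell makeup in the ratios of the host genes was not tested, and fewer cells of a type and less RNA per cell cannot be told apart in bulk RNA.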

How the data were processed

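The authors deposited 1 gene table for 1 DMSO and 1 GW3965 library. The submitters' processing notes list the tools CASAVA, Cuffdiff, Cufflinks (version 2.0.2) and TopHat2 (version 2.0.6), and the builds mm9 and NCBIM37. The expression values are FPKM made by the authors, per the file headers, next to the test score, p-value and q-value that the authors deposited for each gene; the score has the opposite sign to the ratio. The deposited log2 fold and signed fold columns were not used for values. The second library is named GL in the table and was read as GW3965, the only other sample, which is not certain.

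From these values log2 ratios with a pseudocount of 1 were computed, for genes of at least 1 FPKM in either library, leaving out 7 genes marked for too many fragments. A standard error is the size of the log2 FPKM ratio over that of the score. Depth was read from 4608 low genes: the most frequent DMSO to GW3965 ratio was 1.24, and with it 52.3% of the ratios matched a quotient of integers up to 10 (tolerance 0.1%), compared with 1.82% when displaced by 3%. The absolute scale came from the most frequent estimate among 294 single-transcript genes, shared by 102 of them. The 155 bases taken off each transcript length were the trial value with the highest such count. Fragment numbers are estimates and cover counting error only.

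The members and lists were chosen with earlier results of these data known. Named genes are all members, rows in their loci, nearest neighbours, in each list up to 4 ratios largest in size and up to 2 highest levels, and 3 LXR targets; Fkbp5, Tat, G6pc, Rplp0, Snhg20 and the cell type markers were named after their values were seen. Mir22hg and Gm14286 were dropped from the list of noncoding hosts because they are not known as snoRNA hosts. GENCODE M21 (GRCm38) gave classes and transcripts for 31833 identifiers, 3 of the 6 members among them; Snhg1 and Snhg5 were matched to it by symbol. Genes listed under another symbol were matched through RefSeq synonyms (Zfas1, Snhg4 and Firre among them) or by the Ensembl identifier that GENCODE pairs with the name (Rn7sk and Rmrp). The table's starts were raised by 1: read as 0-based they gave the GENCODE gene length in 58.5% of 19846 single-gene loci, and read as 1-based in 1.53%. Python 3.11.15, numpy 2.4.6, pandas 2.3.3 and matplotlib 3.10.9 were used.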

Additional observations from a re-analysis of the deposited data

How the results depend on the processing

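Alternatives were a pseudocount of 0.1 or 5, no minimum or a minimum of 5 FPKM, centring on the median, scaling to the same sum, genes the authors tested, and thresholds of 2-fold and of 0.32 in log2. Under each, changed 1 at a time, all 6 host genes stayed below 0 and 0 passed the threshold. The lower threshold and the smaller pseudocount were not combined. With a pseudocount of 0.1, Snhg7 stood at -0.35, past 0.32 in log2. The median of the 6 host genes and that of the other noncoding hosts moved by less than 0.1. That margin is wide beside medians of -0.19 and -0.16. The median of the other noncoding hosts was -0.11 with a pseudocount of 5. The pseudocount, the minimum, the choice of tested genes and the threshold cannot change the sign of a gene's ratio. Only centring and scaling shift it, so the other settings are no check of the shared direction. Of 42 values of single members 1 moved by more, Snhg7 to -0.18 with a pseudocount of 5, which by construction shrinks low genes. The share of all genes at least 1.5-fold lower was 2.71% with a pseudocount of 0.1, 0.475% with 5 and 0.790% among long genes (protein-coding or long noncoding, of at least 300 bases). Leaving out Snhg3 or Snhg9 and joining all noncoding hosts were chosen after seeing the data. No paired analysis was possible because there is just 1 library on either side. With no replicate, a difference between the cultures other than GW3965 cannot be told apart from its effect. The FPKM of snoRNAs are likely to rest on few fragments.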

Other observations

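Other long-known noncoding RNAs were also mostly lower in the GW3965 library. Of 20 matched genes of this list, 9 reached the minimum FPKM. Among these 9, 8 were below 0 and 1 above, with a median of -0.13. Of the 264 long noncoding genes at the minimum, 59.5% were below 0. Rn7sk, the small nuclear RNA that holds back the elongation factor P-TEFb, had 11.5 FPKM in DMSO and 4.94 in GW3965 (-1.07), with p = 0.00252 and q = 0.333125 in the authors' deposited table, without a call. Rmrp, the RNA of the RNase MRP enzyme, had 3.40 and 1.42 FPKM (-0.86, p = 0.571 in the authors' deposited table). Xist, the RNA of X inactivation, had 78.3 and 63.5 FPKM (-0.30), and Firre had 11.3 and 10.2 (-0.13). Tug1 was the one above 0, with 13.1 and 13.9 FPKM (0.07).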
